A study of Homo sapiens with 2 samples.

Results

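The epithelial or mesenchymal state of Seg-1 cells was described from 37 genes: keratins, structural genes of tight junctions, desmosomes and adherens junctions, polarity genes, epithelial regulators, and vimentin with transcription factors of the epithelial to mesenchymal transition (EMT). A probe set, the group of short probes that reports a transcript on the array, was used when it was annotated to exactly 1 of these symbols. This gave 72 probe sets for 33 of the 37 genes, out of 41091 probe sets and 19775 genes with a single symbol on the array. KRT81, F11R, CTNND1 and ESRP2 had no probe set annotated to them alone and are given no values. Seg-1 is an adherent human line that was first taken for esophageal adenocarcinoma and that the labels identify as the lung cancer line H460. The control group is 1 array of cells given a negative control siRNA without homology to a known gene. The treated group is 1 array of cells given FGF-AS siRNA, which targets the transcript antisense to FGF2. Both cultures were reverse transfected with the same lipid reagent and harvested at 72 hours, with siRNA at final concentrations between 25 and 200 nM per the labels. Which concentration each array stands for is not stated there.

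Epithelial cells are held together by tight junctions, which seal the space between cells, by adherens junctions, which couple cadherins to actin through catenins, and by desmosomes, which couple cadherins to keratin filaments. In an EMT, factors such as ZEB1, ZEB2, SNAI2 and TWIST1 repress junction genes, cells gain vimentin filaments, and the epithelial splicing regulators ESRP1 and ESRP2 are lost. GRHL2, a grainyhead factor, maintains the epithelial programme and opposes ZEB1.

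With 1 array in each group, differences could not be checked against replicates, and p-values are not given. A log2 ratio compares FGF-AS siRNA with control siRNA after 6.1 was added to both signals, which understates the change of dim probe sets. A probe set counted as measured when its mean signal over both arrays reached 23.85, the median of all probe sets, and a gene was represented by its brightest probe set. A stricter minimum of 145.15 marks the brighter genes. The disagreement between probe sets of the same gene gave the only error: an SD of 0.36 (log2) at or above the stricter minimum and of 0.58 below it. That SD covers neither cultures nor hybridisations. NUDT6, the gene of the targeted transcript, read 376.9 on the control array and 104.5 on the other. The 6 lung epithelium markers had a summed signal of 205.6 on the control array and 219.4 with FGF-AS siRNA, and 3 of them were measured. SFTPC, a surfactant protein gene and one of those measured, read 14.7 and 59.1 (log2 ratio 1.65). This was its only measured probe set of 5, and its control signal was below 23.85. NKX2-1, a lineage factor of lung epithelium, was under the minimum (24.9 and 11.8). The 5 leukocyte markers had a summed signal of 179.8 on the control array and 165.9 with FGF-AS siRNA, and 3 of them were measured. The 4 endothelium markers summed to 63.9 and 83.8, with 1 measured. Reaching the minimum is therefore not by itself a sign of expression. Signals of different probe sets depend on their probes and are not compared as amounts of mRNA.

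Members of both the epithelial and the mesenchymal programme were measured in these cells. Of the 37 genes, 24 were measured, which were 21 of the 32 keratin, junction, polarity and epithelial regulator genes and 3 of the 5 mesenchymal genes. Among the 33 members with a probe set, 24 were measured, beside 12352 of all 19775 genes with a probe set. Most genes on the array thus reached the minimum. The measured genes were KRT7, KRT8, KRT18, KRT19 and KRT80 among keratins, 7 of the 11 tight junction genes, all 6 desmosome genes, CTNNA1, PARD3, LLGL2, and VIM, SNAI2 and ZEB1. In 9 genes every probe set was under the minimum: CLDN4, CLDN7, CGN, CDH3, CRB3, ESRP1, GRHL2, ZEB2 and TWIST1. Their 16 probe sets read from 0.8 to 27.1, and 1 of these 32 values, that of CLDN4 on the control array, reached 23.85. Without detection calls such a signal cannot be told from background. In RNA of a whole culture, fewer cells with a transcript and less of it per cell cannot be told apart.

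**Figure D1:**
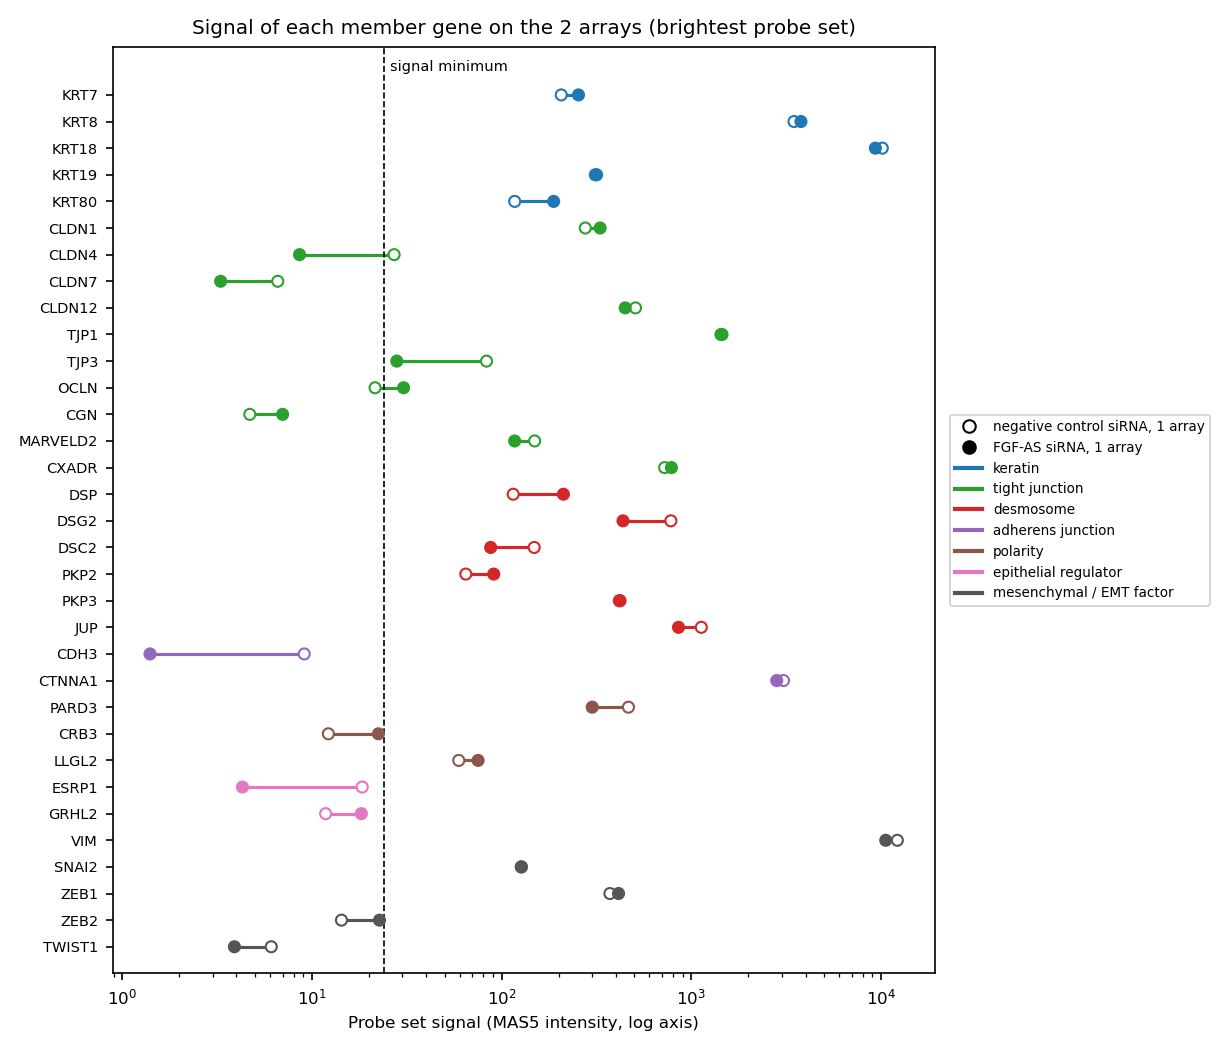
Signal of the brightest probe set of each of the 33 member genes (log axis) on the negative control siRNA array (open) and the FGF-AS siRNA array (filled), coloured by role, with the signal minimum of 23.85 as a dashed line. VIM, KRT18 and KRT8 lie at the right, far above the minimum on both arrays, while CLDN7, CGN, CDH3, ESRP1, GRHL2, CRB3, ZEB2 and TWIST1 lie under the minimum on both.

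ZEB1 and SNAI2 bind an E-box with the letters CAGGTG, or CACCTG on the other strand, so the stretch before the start site of the members was searched for it on both strands. The windows are the 250 bases before an annotated start site (RefSeq, GRCh38.p14), of which 36 were available for 19 members. The E-box was found in 12 of the 36 windows (33.3%), belonging to 10 genes, and in 17.5% of all 35116 windows of that length. Windows of a gene with several start sites are not independent, and a match is a run of letters, not a binding site. The grainyhead motif AACCNGGTT was in no member window and in 0.202% of all windows. Of the 6 measured members that differed by at least 1.5-fold between the arrays, KRT80 and PARD3 were without a window, and each of the other 4 had 1 window with the E-box. Those 4 windows are printed because they hold the E-box and their genes differed by at least 1.5-fold. The window of CRB3, an apical polarity gene under the signal minimum, is printed because it held the most matches (5). Bases run 5′ to 3′ along the gene's strand, end at the base before the start site, and the E-boxes are in capitals.
DSG2 (chr18:31497927-31498176, plus strand): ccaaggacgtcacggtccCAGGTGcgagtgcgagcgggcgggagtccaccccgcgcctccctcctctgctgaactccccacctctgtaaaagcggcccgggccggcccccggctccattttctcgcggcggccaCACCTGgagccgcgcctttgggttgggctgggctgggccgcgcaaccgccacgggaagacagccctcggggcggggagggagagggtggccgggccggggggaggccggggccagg
DSC2 (chr18:31102422-31102671, minus strand): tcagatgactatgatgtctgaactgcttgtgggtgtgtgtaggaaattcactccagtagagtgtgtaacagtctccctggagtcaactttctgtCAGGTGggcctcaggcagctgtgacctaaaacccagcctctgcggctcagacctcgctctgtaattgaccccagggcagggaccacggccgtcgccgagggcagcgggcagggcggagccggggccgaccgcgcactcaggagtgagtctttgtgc
DSP (chr6:7541421-7541670, plus strand): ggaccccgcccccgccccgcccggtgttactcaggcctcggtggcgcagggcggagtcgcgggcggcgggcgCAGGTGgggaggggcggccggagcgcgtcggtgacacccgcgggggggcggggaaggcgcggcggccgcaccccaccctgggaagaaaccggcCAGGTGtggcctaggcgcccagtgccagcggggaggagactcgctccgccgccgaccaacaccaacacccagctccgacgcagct
TJP3 (chr19:3721487-3721736, plus strand): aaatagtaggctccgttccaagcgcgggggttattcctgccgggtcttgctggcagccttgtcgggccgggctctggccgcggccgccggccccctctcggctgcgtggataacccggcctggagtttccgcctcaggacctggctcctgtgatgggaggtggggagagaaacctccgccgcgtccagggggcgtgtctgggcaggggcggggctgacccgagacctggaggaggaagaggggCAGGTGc
CRB3 (chr19:6464021-6464270, plus strand): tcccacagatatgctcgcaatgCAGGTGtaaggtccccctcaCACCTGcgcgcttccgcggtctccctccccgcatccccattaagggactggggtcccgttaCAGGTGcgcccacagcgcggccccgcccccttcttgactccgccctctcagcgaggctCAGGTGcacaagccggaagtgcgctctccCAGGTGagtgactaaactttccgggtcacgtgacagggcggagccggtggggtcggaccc
DSG2 and DSP each held the E-box at 2 places, DSC2 and TJP3 at 1. DSC2 and TJP3 each also had another window without the E-box. DSP was higher and DSG2, DSC2 and TJP3 were lower with FGF-AS siRNA (below). Whether the letters go with a direction was not tested.

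As a group the members lay around 0. Of the 24 measured genes, 12 had a log2 ratio above 0 and 12 below, where 48.1% and 51.8% of all 12352 measured genes lay. The members' median was -0.01 (SD across genes 0.50), beside -0.02 over all measured genes. None was at least 2-fold higher, against 2.05% of all measured genes, and 1 (4.17%) was at least 2-fold lower, against 2.72%. At 1.5-fold, 2 genes (8.33%) were higher, against 7.96% of all genes, and 4 (16.7%) were lower, against 9.52%. A ratio at or past the probe set SD of its signal range was found in 7 members (29.2%), against 28.3% of all measured genes. The counts of higher genes and of genes past the SD were close to the background, and the share of lower genes was above it but was not tested. The direction of the median depends on scaling: it was 0.06 under median centring and 0.08 under quantile normalization, where the median of all genes was 0.05 and 0.06.

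**Figure D2:**
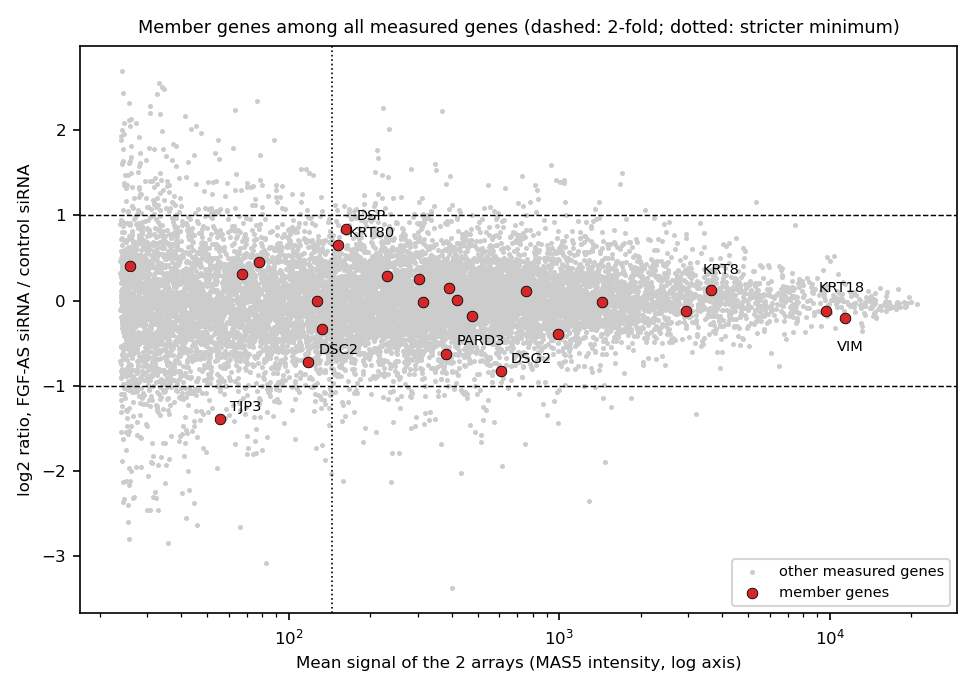
Log2 ratio of FGF-AS siRNA over control siRNA against mean signal (log axis) for every measured gene (grey) and the 24 measured members (red), 1 array per group, with dashed lines at 2-fold and a dotted line at the stricter minimum. The 6 labelled members DSP, KRT80, PARD3, DSG2, DSC2 and TJP3 lie past 1.5-fold, KRT8, KRT18 and VIM are labelled for orientation, and TJP3 alone is past 2-fold.

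The keratins form the intermediate filaments of epithelial cells. KRT8 and KRT18 are the filament pair of simple epithelia. KRT8 read 3475.7 on the control array and 3780.9 with FGF-AS siRNA, a log2 ratio of 0.12. KRT18 read 10152.5 and 9327.2, a log2 ratio of -0.12. Both ratios were 0.34 times the probe set SD, so a difference in this pair was not resolved by the arrays. KRT19, a simple epithelial keratin, read 316.5 and 311.6. KRT7, a keratin of glandular and ductal epithelia, read 206.1 and 254 on its brightest probe set and 66.5 and 85.9 on the other measured one, with log2 ratios of 0.29 and 0.34 that are under the SD. KRT80 was the keratin that differed most. It read 117.1 on the control array and 187.9 with FGF-AS siRNA, 1.57-fold higher (log2 ratio 0.66, 1.83 times the SD), on its only probe set. Of the keratins of stratified epithelia on the list of other genes, KRT1, KRT4, KRT5, KRT13, KRT14, KRT15 and KRT16 were under the minimum. KRT10, also a keratin of stratified epithelia, was measured (1339.2 and 1682.3, log2 ratio 0.33). It was the only measured gene of the 14 other keratins with a probe set.

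The desmosome genes spread widely around 0. All 6 were measured, 3 above and 3 below 0, with an SD across genes of 0.67, beside 0.48 over all measured genes. The desmosomal cadherins, which bridge neighbouring cells, were lower with FGF-AS siRNA. DSG2 read 779.7 on the control array and 436.1 with FGF-AS siRNA on its brightest probe set (217901_at), 1.78-fold lower (log2 ratio -0.83). Its other probe set (1553105_s_at) had signals of 568.4 and 192.5 (log2 ratio -1.53). DSG2 is the desmoglein of simple epithelia, and both of its ratios were more than 2 SD from 0. DSC2, the desmocollin that pairs with it, read 148.4 and 87.5, 1.65-fold lower (log2 ratio -0.72, 1.24 times the SD). Its second measured probe set read 39.7 and 19.5 (-0.84), and its 2 probe sets under the minimum read 8.9 and 0.9, and 2.2 and 1.2. The 4 measured probe sets of the cadherin pair were thus all lower, but probe sets of a gene share its RNA. The 2 under the minimum cannot be told from background. The cadherins of stratified epithelia, DSG1, DSG3, DSC1 and DSC3, were under the minimum on both arrays, with signals from 0.8 to 17 on their brightest probe sets.

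The genes of the plaque proteins that tie the cadherins to keratin had no common direction. DSP, desmoplakin, which anchors keratin filaments, read 115 on the control array and 211.5 with FGF-AS siRNA, 1.80-fold higher (log2 ratio 0.85, 2.37 times the SD), the highest ratio of the measured members. It has 1 probe set. EVPL, envoplakin, of the same plakin family and not a member, read 51.5 and 128 (log2 ratio 1.22), while the plakin PPL read 74.7 and 47.2 (-0.60). JUP, plakoglobin, the catenin of desmosomes, read 1128.3 and 855.5 (-0.40, 1.11 times the SD). PKP3, a plakophilin, read 417.2 and 420.8 (0.01) and on its other probe set 152.4 and 128.1 (-0.24). PKP2 read 64.7 and 90.8 (0.45, 0.78 times the SD), and its second probe set was under the minimum at 10 and 2.4. DSP and the DSG2 and DSC2 pair therefore lay on opposite sides of 0, each by more than its SD.

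**Figure D3:**
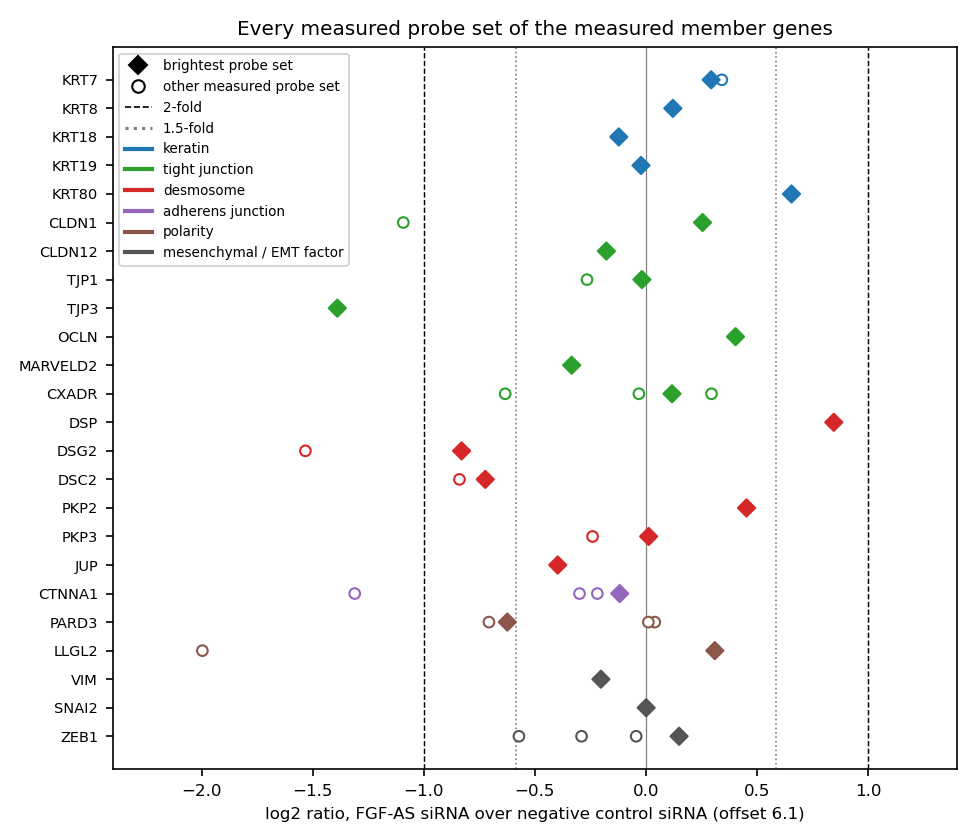
Log2 ratio of each of the 43 measured probe sets of the 24 measured members, by gene and coloured by role, with diamonds for the brightest probe set, open circles for the others, and lines at 1.5-fold (dotted) and 2-fold (dashed). DSG2 and DSC2 are lower on all measured probe sets, while CLDN1, LLGL2, CXADR, PARD3, PKP3 and ZEB1 have probe sets on both sides of 0.

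Among tight junction genes, TJP3 was the member furthest from 0. TJP3 encodes ZO-3, a scaffold under the junction. It read 83.2 on the control array and 28 with FGF-AS siRNA on probe set 35148_at, 2.62-fold lower (log2 ratio -1.39, 2.39 times the SD), at percentile 0.98 of measured genes. Its other probe set, under the minimum, read 32.4 and 3, also lower. TJP1, the ZO-1 scaffold, read 1450.5 and 1432.3 (-0.02) and on its second probe set 336.3 and 278.8 (-0.27). The paralogue ZO-1 thus differed by less than the SD where ZO-3 was lower, and the difference between them was not tested.

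The claudins, which form the seal itself, gave few measured values. CLDN12 read 507.5 and 447.9 (-0.18). CLDN1 disagreed between its probe sets: the brighter (222549_at) read 275.9 and 330.4 (0.25) and the other (218182_s_at) 162.5 and 73 (-1.09). No direction can be given for CLDN1. CLDN4 read 27.1 and 8.6, and CLDN7 read 6.6 and 3.3. The marvel domain proteins occludin and tricellulin sit beside the claudins. MARVELD2, tricellulin, read 149.2 and 117.1 (-0.33). OCLN, occludin, lay just inside the minimum at 21.5 and 30.4 (0.40), and its 3 other probe sets were under it. One of these (227492_at) read 5.1 and 38.2 and another (235937_at) 8.2 and 2.4, so occludin has no settled direction. CXADR, a junctional adhesion protein and virus receptor, read 723 and 784.8 (0.12) on its brightest probe set, and its 3 others ran from -0.63 to 0.30. CGN, the scaffold cingulin, read at most 7.

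The adherens junction was represented by its catenin. CTNNA1, alpha-catenin, which links cadherins to actin, read 3058.4 on the control array and 2817.8 with FGF-AS siRNA (-0.12). Its next probe sets read 2642.7 and 2270.2 (-0.22), and 2012.7 and 1634.9 (-0.30). A further bright probe set (1558214_s_at) had signals of 1370.5 and 548.9 (-1.31). All 4 measured probe sets were lower, and 3 of them by less than the SD. CDH3, P-cadherin, read 9.1 and 1.4. E-cadherin (CDH1), the cadherin of epithelia and not a member, was under the minimum on both probe sets, at 0.9 and 18.4 and at 1.1 and 7.8, and N-cadherin (CDH2) was measured at 41.5 and 68.1 (log2 ratio 0.64, and -0.59 on its other measured probe set). The beta-catenin gene CTNNB1 read 644.7 and 524.3 (-0.30), and its 3 measured probe sets ran from -0.56 to -0.30.

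Polarity genes set the apical and basal sides of an epithelial cell. PARD3, a scaffold of the Par complex at tight junctions, read 465.9 and 300.2 on its brightest probe set, 1.54-fold lower (log2 ratio -0.62, 1.75 times the SD), and 432.2 and 262.5 on the next (-0.71). Its 2 dimmer probe sets read 68.8 and 70.9 (0.04), and 58.5 and 59 (0.01). PARD3 was lower on its bright probe sets alone. LLGL2, a basolateral polarity gene, read 59.4 and 75.1 (0.31) on one probe set and 66.9 and 12.2 (-2.00) on the other, so it has no settled direction. CRB3, Crumbs, read 12.2 and 22.4. Of the 9 other polarity genes, all measured, 8 had a log2 ratio below 0, against 51.8% of all measured genes. The median over all 9 was -0.09. By brightest probe set, PARD6B, a partner of PARD3, was the lowest of them (196.9 and 114.7, -0.75), and none of the 9 was past 2-fold. Dimmer measured probe sets went lower in DLG1 and PALS1. The 5 measured probe sets of DLG1 ran from -1.51 to 0.55, and the 2 of PALS1 from -0.90 to -0.26.

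The mesenchymal genes differed little. VIM, vimentin, read 12182.4 on the control array and 10586.5 with FGF-AS siRNA (log2 ratio -0.20, 0.57 times the SD), and its second, dim probe set read 19.9 and 6. ZEB1 read 371.9 and 413.1 (0.15) on its brightest probe set, while its 3 others ran from -0.57 to -0.04. SNAI2, which encodes Slug, read 126.9 and 127 (0.00). All 3 of these ratios were smaller than the probe set SD. ZEB2 read from 1 to 22.7 on 5 probe sets and TWIST1 read 6.1 and 3.9. On the epithelial side ESRP1 read 18.4 and 4.3, and 3.8 and 8.7 on its other probe set, and GRHL2 read 11.8 and 18.2. Among named antisense genes of members, ZEB1-AS1 read 57.4 and 25 (-1.03), and DSG2-AS1 read 38.9 and 24.7 on its measured probe set (-0.55).

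Among single probe sets more were lower than higher. Of the 43 measured member probe sets, 5 (11.6%) were at least 2-fold lower, against 5.33% of all measured probe sets with 1 symbol, and none was 2-fold higher, against 1.94%. These 5 belong to 5 genes: DSG2, TJP3, CTNNA1, CLDN1 and LLGL2. At 1.5-fold, 11 (25.6%), in 8 genes, were lower, against 15.1%, and 2 (4.65%) were higher, against 7.53%. The second probe sets of CLDN1 and LLGL2 set part of this count although their brightest read higher, and probe sets of a gene share its RNA. Of the 11 members with several measured probe sets, 5 had all of them on the same side of 0 and 6 did not.

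The other genes of the same structures also lay around 0. Of 104 listed genes outside the members, 59 were measured, with 26 above and 33 below 0 and a median of -0.04. By brightest probe set, EVPL was the only one past 2-fold in either direction, where 4.77% of all measured genes were. Dimmer measured probe sets were past 2-fold lower in JAM3 (-1.51), MAGI3 (-1.63), DLG1 (-1.51) and FN1 (-2.63), and past 2-fold higher in QKI (1.28). At 1.5-fold 8 (13.6%) were higher, against 7.96% of all measured genes, and 7 (11.9%) were lower, against 9.52%. The 10 measured epithelial genes had a median of -0.28. The lowest were S100A14 (38.8 and 18.5, -0.87) and ELF3, an epithelial ETS factor (105.6 and 55.9, -0.85). MAL2, an apical transport protein, was highest (45 and 93.7, 0.97). S100A14 read below 23.85 with FGF-AS siRNA. AP1M2 was the only one of the 10 at the stricter minimum, and it was higher (495.3 and 695.6, 0.48). The median of this list therefore rests mostly on dim probe sets. EPCAM, an epithelial adhesion molecule, read 34 and 43.8 (0.32). The 12 measured mesenchymal genes had a median of 0.17. QKI, an RNA-binding splicing regulator linked to EMT, read 914.9 and 1755.4 (log2 ratio 0.94) and was higher on all 6 measured probe sets (0.26 to 1.28). FN1, fibronectin, read 8059 and 11476.7 (0.51), but another of its bright probe sets read 1478.7 and 233.6 (-2.63). S100A4, a calcium-binding protein used as a mesenchymal marker, read 8229.1 and 4810.4 (-0.77). The 6 fibroblast markers, of which 3 were measured, had a summed signal of 545 and 340.1. COL3A1, a fibrillar collagen gene, accounts for that drop (316.4 and 104.6), since the other 5 summed to 228.6 and 235.5. The markers' part in the mesenchymal values was not tested.

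**Figure D4:**
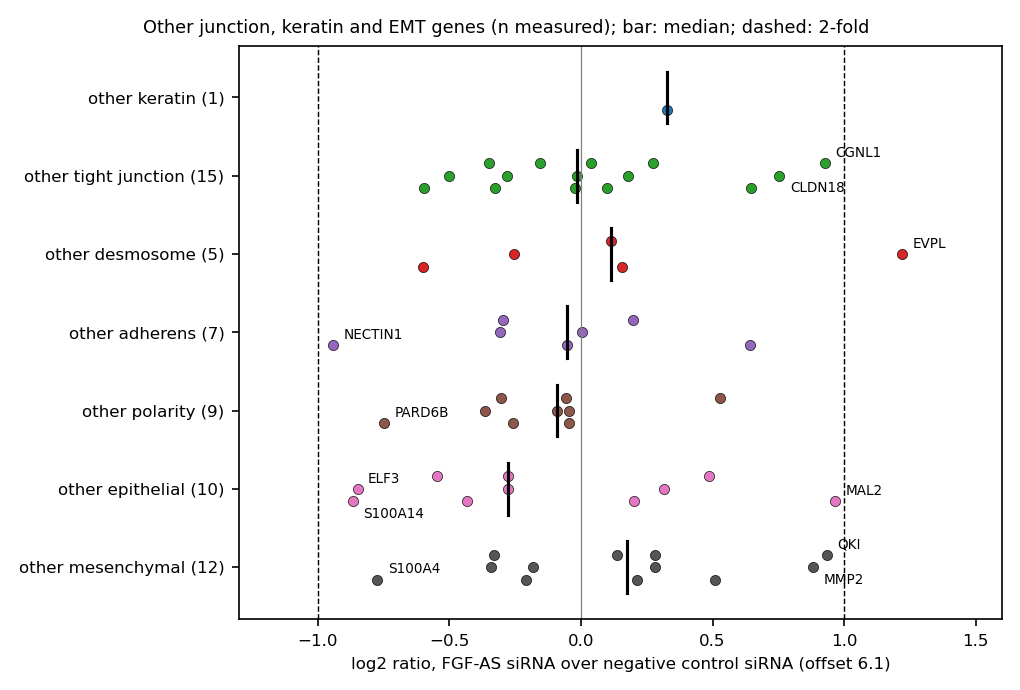
Log2 ratio of FGF-AS siRNA over control siRNA for the 59 measured genes of the same structures outside the members, by list with the number measured, with a bar at each list's median and dashed lines at 2-fold. Each gene is shown by its brightest probe set. EVPL at 1.22 is the only gene past 2-fold on it, and the lists overlap around 0.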

How the data were processed

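RNA of 2 Seg-1 cultures was hybridised to Affymetrix U133 Plus arrays, 1 per siRNA. The authors deposited a linear intensity for each probe set and array. GCOS and MAS5 are named, per the submitters' processing notes, with neither version nor scaling target, so how the arrays were scaled against each other stays unknown. Median intensities of non-control probe sets were 25.5 (control siRNA) and 23.1 (FGF-AS siRNA). No further scaling was applied.

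Of 54675 probe sets, 62 were Affymetrix controls, 41091 had 1 gene symbol, 1801 several and 11721 none here. Symbols were checked by gene identifier against RefSeq (GRCh38.p14), which matched 41037. The offset of 6.1 was set at the 25th percentile of non-control signals, and the minimums are the 50th and 75th percentiles of mean signal. A gene was called at 2-fold, with 1.5-fold as a smaller size. Every member was reported, those past 1.5-fold, the brightest 2 of each role and those with disagreeing probe sets in full. The members and lists were chosen with earlier results of these data known. ZEB1-AS1, DSG2-AS1 and, except EVPL, the other genes outside the members were named after their values were seen. Python 3.11.15, pandas 2.3.3 and statsmodels 0.14.6 were used, and the procedure was tested on simulated data. The number of arrays limits the precision.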

Additional observations from a re-analysis of the deposited data

How the results depend on the processing

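The comparison was recomputed under 12 alternatives: 3 other offsets, 4 scalings, 2 choices of probe set and 3 filters on dim probe sets. No member gene was at least 2-fold higher under any of them. The number of members at least 2-fold lower was 1 of 24 as reported (TJP3), against 2.72% of all measured genes. With the mean over measured probe sets of a gene it was 2 of 24 (DSG2 added), against 2.78%. It was 2 of 16 when _s_at and _x_at probe sets were left out (LLGL2 added), against 3.3%. With no minimum signal it was 4 of 33 (CLDN4, CDH3 and ESRP1 added), against 6.42% of all genes. At the stricter minimum, which TJP3 does not reach, it was 0 of 17, against 1.11%. The median of the members ran from -0.16 (mean over probe sets) to 0.08 (quantile normalization). Under these 2 alternatives the median of all measured genes was -0.06 and 0.06. Of 272 values of single genes under an alternative, 4 moved by the probe set SD or more: CLDN1 (-0.42), CTNNA1 (-0.49) and LLGL2 (-0.84) with the mean over probe sets, and LLGL2 (-2.00) when _s_at and _x_at probe sets were left out. The sign held under every alternative run for 17 of 24 genes. The others were KRT19, CLDN1, TJP1, CXADR, PKP3, LLGL2 and ZEB1. Under those alternatives that kept the gene, DSG2 ran from -1.18 to -0.76, DSC2 from -0.78 to -0.58, TJP3 from -1.54 to -1.04, DSP from 0.76 to 0.96, KRT80 from 0.59 to 0.77 and PARD3 from -0.63 to -0.32. No paired analysis was possible because each group holds 1 array.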
